A study of Mus musculus with 76 samples.

Results

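The ErbB3 tumours are the 6 of 76 arrays whose labels name ErbB3 as the introduced gene. They were set against the other 70 arrays, through the equally weighted mean of the 12 other introduced genes. Of these, FAK1 had 4 arrays, and FGFR2aIIIb, FGFR2aIIIc, FGFR3, HER2, MAP3K11, MAP3K7, PIP5K1B, RON+MSP, RONd160, RSK2 and TNK2 had 6 each. All arrays are from tumours of C57BL/6 mice, and all groups share a tumour model whose original driver, an activated and doxycycline-inducible HER2, was switched off by withdrawing doxycycline. The named gene was then introduced to see whether it could keep the tumour growing, and in the HER2 group that gene was HER2 itself. ErbB3 and 11 of the other groups are labelled as without cachexia, a wasting syndrome of cancer, and the 6 MAP3K11 arrays as with cachexia. Of the ErbB3 arrays 2 carry the label T1, 1 carries T2 and 3 carry T3, a label that the sources used here do not explain. Nor do they give the age of the mice, the promoter of the introduced gene or the tumour line behind each array. The effect of the introduced gene and a difference between lines cannot be told apart, and where arrays are not separate animals the p-values cover only the spread among arrays, part of which may be technical.

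ERBB3 (HER3) is a receptor of the epidermal growth factor receptor family that binds neuregulins. Its own kinase is weak, so it signals by pairing with HER2 or EGFR, and its phosphorylated tail has several docking sites for the regulatory subunit of PI3-kinase. The pairs feed the PI3-kinase and AKT pathway, which holds FOXO transcription factors out of the nucleus, and the RAS and ERK pathway, which induces its own brakes such as dual-specificity phosphatases, Sprouty and Spred proteins.

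All values are log2 expression. The median array value was 5.45 in the lowest and 5.56 in the highest array. The 3 probe sets for bacterial trp RNA, absent from mouse cells, had a median of 2.95, and a group at that level has no measured signal. The number of arrays limits the precision. The ErbB3 arrays were matched into 3 pairs on the median expression of their autosomes, with Pearson r across chromosomes of 0.951, 0.880 and 0.975. The matching with the highest summed r was taken, so high values within pairs follow from that choice. The other 12 combinations of ErbB3 arrays had a median of 0.534. Pair 1 is T1 replicate 1 with T3 replicate 1, pair 2 is T1 replicate 2 with T3 replicate 2, and pair 3 is T2 replicate 1 with T3 replicate 3. Expression with the chromosome medians removed correlated at 0.782 (median) within the ErbB3 pairs and at 0.298 between the other 12 combinations of ErbB3 arrays. Because paired arrays may not be independent tumours, counts of calls are given with arrays as replicates and with the pairs of all groups as a random block (estimated correlation 0.628). That correlation comes from pairs matched on these same data. Averaging each pair to 1 value left fewer calls, 2.74% of all genes higher and 3.06% lower, and is given for the main lists. A gene is called when its adjusted p is under 0.05 over all genes tested, and values, SEs and adjusted p are from the fit with arrays as replicates unless the block is named (limma, ErbB3 n = 6 arrays).

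Of 13868 genes tested, 3961 (28.6%) differed between the ErbB3 tumours and the other 12 groups, 2077 of them higher (15.0%) and 1884 lower (13.6%) in ErbB3. With the pairs as a block 1653 were called (11.9%), 804 higher (5.80%) and 849 lower (6.12%), and all of these were also called with arrays as replicates. At least a 2-fold difference was seen in 329 called genes (2.37%), 162 higher and 167 lower. The 3 pairs did not carry these calls equally. Without pair 1 there were 4416 calls (31.8%), without pair 2 there were 1632 (11.8%), and without pair 3 there were 2428 (17.5%), 9.39% of all genes being higher and 8.12% lower then. Leaving out the single array T1 replicate 2 gave 2598. In 1431 genes (10.3%) the ErbB3 mean was the highest of the 13 group means, and in 1461 (10.5%) the lowest.

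Slc25a12, which encodes a mitochondrial aspartate-glutamate carrier, was the only gene in which all 6 ErbB3 arrays lay above all 70 others (0.00721% of the genes tested), and no gene had all 6 below. Its log2 values were 8.91 and 8.89 in pair 1, 8.95 and 8.86 in pair 2, and 9.01 and 9.08 in pair 3. The highest other array reached 8.86, so the gap between the groups was 0.00094 and rests on 1 array at each edge. The log2 difference was 0.63 (SE 0.09, adjusted p = 1.0e-06).

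The 12 called genes with the highest differences were Col10a1, Ogn, Ptn, Mgp, Prelp, Itga8, Dmp1, Crabp2, Mn1, Bmper, Fbln5 and Cxcl12, with log2 differences from 3.04 down to 1.85. They were taken from genes called in both fits with every ErbB3 array above the mean of the other groups. Col10a1, the collagen of hypertrophic cartilage, was at 5.39 and 7.17 in pair 1, 7.46 and 8.67 in pair 2, and 10.56 and 10.11 in pair 3. The other 70 arrays lay between 4.66 and 8.26, so pair 3 and T3 replicate 2 were above all of them and the others within their range. The difference was 3.04 (SE 0.30, adjusted p = 2.5e-11), and ErbB3 was called higher against each of the 12 groups taken singly in both fits. Ptn, a secreted heparin-binding growth factor, was at 6.43 and 7.42 in pair 1, 10.44 and 10.03 in pair 2, and 9.55 and 9.91 in pair 3. All 4 arrays of pairs 2 and 3 exceeded the highest other array (8.17), and pair 1 did not (difference 2.68, SE 0.38, adjusted p = 5.1e-07). Mgp, an inhibitor of matrix calcification, had the same order, with 9.35 and 9.54 in pair 1, 12.75 and 12.68 in pair 2, 12.05 and 12.14 in pair 3, and at most 11.76 elsewhere. Cxcl12, the chemokine that binds CXCR4, varied least: the 6 arrays lay between 11.42 and 12.03, with pair 1 inside and pairs 2 and 3 above the range of the other arrays (7.57 to 11.46). Dmp1, a protein of mineralised matrix, had its highest values in pair 1 (7.35 and 8.90) and its lowest in pair 2 (4.39 and 4.75), and without pair 1 it was no longer called (difference 1.35, adjusted p = 0.105). Crabp2, a retinoic acid binding protein, was not called without pair 3 (difference 1.43, adjusted p = 0.068), and the other 10 kept their calls when each ErbB3 array, each pair or each other group was left out.

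The 12 with the lowest differences were Krt18, Tmprss11e, Msln, Lratd1, Dynap, Cldn6, Mmp10, Nefl, Lgr6, Acsbg1, Baiap2l1 and Ccbe1, from -3.63 to -2.63. All 12 kept their calls under the same omissions. Krt18, the keratin that pairs with keratin 8 in simple epithelium, was at 11.74 and 11.45 in pair 1, 5.22 and 7.93 in pair 2, and 7.42 and 8.01 in pair 3. Its mean of 8.63 was below that of every other group, the next being RSK2 at 9.99, while the single arrays overlapped with the range of the others (6.86 to 13.48) except for T1 replicate 2. The difference was -3.63 (SE 0.43, adjusted p = 1.3e-08). Msln, a surface glycoprotein of mesothelium and many carcinomas, was highest in pair 1 (6.44 and 6.70) and lowest in pair 2 (4.46 and 3.75), with T3 replicate 3 at 4.87, against 4.56 to 10.35 elsewhere (difference -3.30, SE 0.44, adjusted p = 1.6e-07). Cldn6, a tight junction protein of early epithelia, was low in all 6 arrays (5.41 to 5.96), but arrays of other groups reached the same level (lowest 5.37), and it was called lower against 9 of 12 groups in both fits. Tmprss11e, a transmembrane serine protease of squamous epithelium, had a mean of 2.57, under the control level, so its difference of -3.61 is limited by background, and it was called against 6 of 12 groups, 5 with the block. Dynap, at 10.09 and 10.06 in pair 1, was at 4.48 and 5.71 in pair 2 and 7.15 and 6.94 in pair 3, and the other arrays did not go below 7.70. Acsbg1, an acyl-CoA synthetase, likewise lay at 7.15 and 6.99 in pair 1 and between 4.76 and 5.69 in the other 4 arrays, against a lowest value of 6.36 elsewhere (difference -2.72, SE 0.34, adjusted p = 4.8e-08). Pair 1 thus lay within the range of the other groups for Krt18, Dynap, Mmp10 and Acsbg1, and pairs 2 and 3 carried most of the difference.

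**Figure D1:**
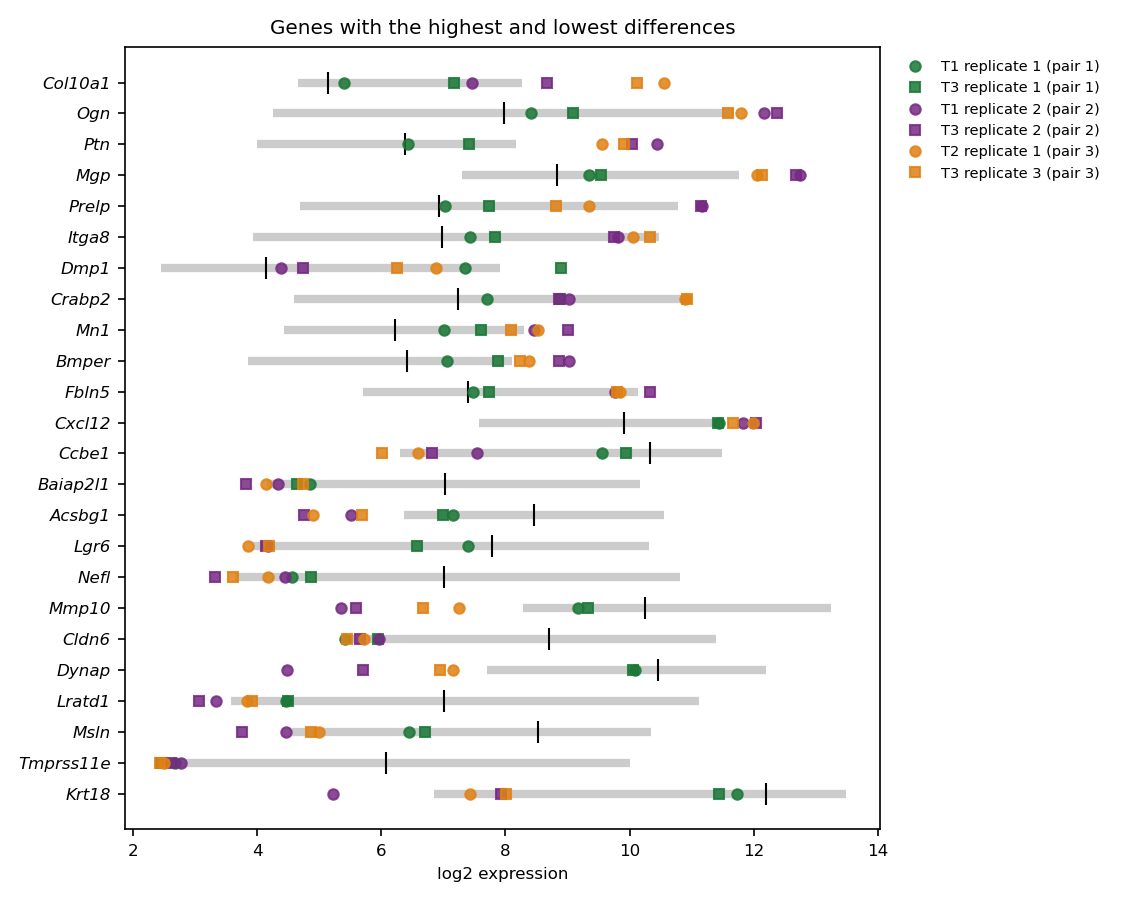
Log2 expression of the 24 genes with the highest and lowest differences between ErbB3 and the other groups; coloured points are the 6 ErbB3 arrays by pair, the grey bar spans the 70 other arrays and the black tick is the mean of the other 12 groups. For Ptn and Mgp the arrays of pairs 2 and 3 lie right of the grey bar, and for Dynap, Mmp10 and Acsbg1 left of it, while the 2 arrays of pair 1 lie inside.

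Among the ERBB receptors, Egfr was higher in the ErbB3 tumours, and neither Erbb2 nor Erbb3 was. Of 4 receptors, 3 passed the filter on low values and Erbb4 did not. Egfr, a partner of ERBB3, was at 7.46 and 8.02 in pair 1, 8.77 and 9.09 in pair 2, and 8.13 and 8.20 in pair 3. All but T1 replicate 1 were above the mean of the other groups (7.50), and T3 replicate 2 alone passed their highest array (8.96). The difference was 0.78 (SE 0.20, adjusted p = 0.0018, with the block 0.034), and without pair 2 it was 0.44 and not called (adjusted p = 0.198). Erbb2, which encodes HER2, lay between 6.36 and 6.71, with the lowest mean of the 13 groups (difference -0.23, SE 0.07, adjusted p = 0.012). That difference was not called with the block (0.14), nor without pair 3 (-0.16, adjusted p = 0.191) or either of its arrays. Mouse Erbb3 was at 5.02 and 5.02 in pair 1, 4.86 and 5.15 in pair 2, and 4.83 and 5.27 in pair 3, against a mean of 5.28 elsewhere (difference -0.22, SE 0.21, adjusted p = 0.46). A second Erbb3 probe set had a mean of 3.88 in ErbB3 and 3.78 in the other groups. Neither probe set shows the introduced gene, whose species and end sequence the sources used here do not state, so they do not check the label.

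The EGFR ligands Hbegf, Btc and Tgfa were lower in the ErbB3 tumours. Of 11 ligands named, 10 had a probe set and 7 were tested; Nrg3, Nrg4 and Egf did not pass the filter. Hbegf, which activates EGFR and ERBB4, was at 10.03 and 9.72 in pair 1, 7.61 and 7.79 in pair 2, and 7.86 and 7.54 in pair 3. The 4 arrays of pairs 2 and 3 were below all 70 others (lowest 8.20), and pair 1 was near the mean of the other groups (10.16). The difference was -1.80 (SE 0.28, adjusted p = 2.2e-06, with the block 3.9e-05). Btc, another EGFR and ERBB4 ligand, was at 8.42 and 8.48 in pair 1 and between 5.70 and 5.92 in pairs 2 and 3 (difference -1.55, SE 0.41, adjusted p = 0.0030), and its call was lost without pair 2 (-1.08) or pair 3 (-1.17). Tgfa, also an EGFR ligand, was low in all 6 arrays (4.23 to 4.98) against a mean of 6.14, with a difference of -1.51 (SE 0.38, adjusted p = 0.0020, with the block 0.013). Nrg1, the neuregulin that binds ERBB3, had a difference of 0.48 and the highest group mean of the 13, and it was called with arrays as replicates (adjusted p = 0.0037) but not with the block (0.054). Without T1 replicate 2 it was 0.36 and without pair 2 it was 0.22, and neither was called. Ereg (-0.29), Epgn (0.53) and Nrg2 (0.14) were not called in either fit.

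Regulators that act on these receptors went both ways. Of 19 tested, 4 were called lower and 2 higher, beside 13.6% and 15.0% of all genes. With the block 3 were lower and 2 higher, beside 6.12% and 5.80%, and the median difference was 0.02. Errfi1 (MIG6), an inhibitor of the ERBB kinases that is itself induced by their signalling, was at 10.72 and 10.42 in pair 1, 9.79 and 9.40 in pair 2, and 9.19 and 9.23 in pair 3. Pairs 2 and 3 lay below all 70 other arrays (lowest 9.85), and ErbB3 was lower than each of the 12 groups taken singly, 10 with the block (difference -1.36, SE 0.17, adjusted p = 4.6e-08). Src and Cblb, a kinase and a ubiquitin ligase that act on the receptors, were lower by -0.62 (SE 0.08) and -0.53 (SE 0.11), and Lrig2 by -0.24 without a call under the block. Lrig1, which promotes the degradation of ERBB receptors, was higher by 0.82 (SE 0.16), and without pair 3 it was 0.44 and not called (adjusted p = 0.074). Lrig3 was higher by 0.75 (SE 0.14), with the 4 arrays of pairs 2 and 3 between 6.99 and 7.41, above all others (highest 6.76), and pair 1 at 6.18 and 6.32.

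**Figure D2:**
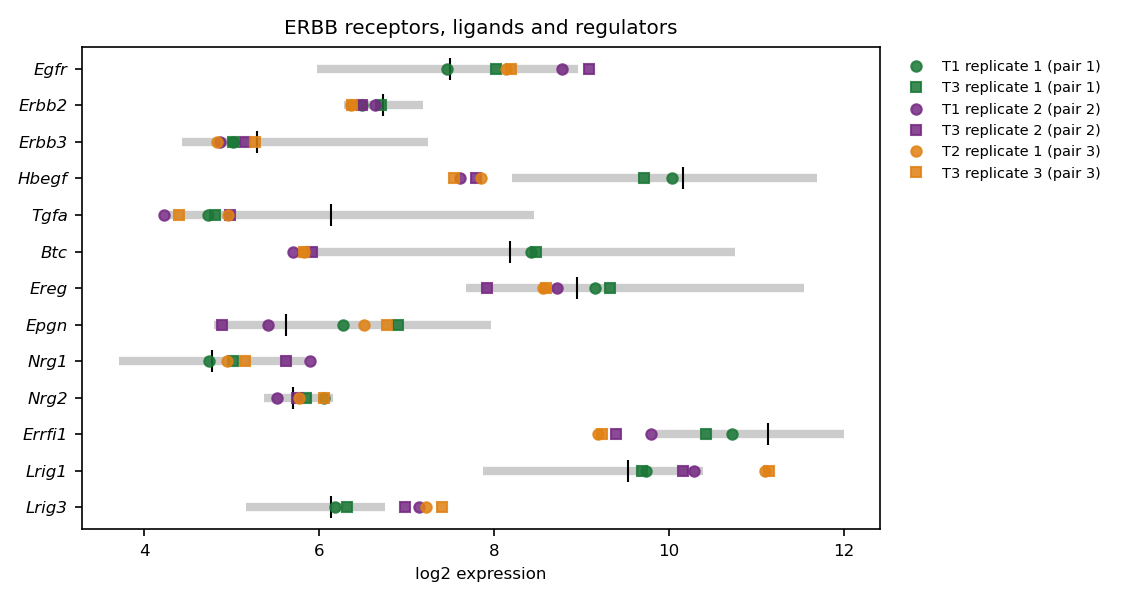
Log2 expression of the ERBB receptors, ligands and 3 regulators; coloured points are the 6 ErbB3 arrays by pair, the grey bar spans the 70 other arrays and the black tick is the mean of the other 12 groups. Hbegf and Errfi1 in pairs 2 and 3 lie below every other array, and the Erbb3 points lie within the grey bar.

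The list of ERK feedback genes holds genes that ERK signalling induces, not all of which restrain it. Of 18 tested, 13 were lower and 0 higher, beside 13.6% of all genes lower. With the block 11 were lower, beside 6.12% of all genes, and with pairs averaged 6 were. The median difference was -0.46, against -0.0023 over all genes. The mean of the list over arrays was -0.03 and -0.12 in pair 1, -0.63 and -0.77 in pair 2, and -0.58 and -0.66 in pair 3, as log2 deviations from the mean of all 76 arrays. Pairs 2 and 3 lay below all 70 other arrays (lowest -0.55), pair 1 was within them, and the group mean was the lowest of the 13. Dusp4, a phosphatase that inactivates ERK in the nucleus, was at 8.68 and 8.59 in pair 1, 6.57 and 6.29 in pair 2, and 7.84 and 8.10 in pair 3 (difference -1.75, SE 0.31, adjusted p = 2.0e-05). Only pair 2 was below the lowest other array (7.66). Spred3, an inhibitor of RAF activation, was lower against each of the 12 groups, 10 with the block (difference -1.07, SE 0.14, adjusted p = 6.5e-08), with pair 1 at 6.88 and 6.75 and the other 4 arrays at 5.47 to 6.11. Ier3 (-1.50, SE 0.24) and Fosl1 (-0.94, SE 0.20), an early response gene and an AP-1 subunit that ERK stabilises, were also lower in both fits. Dusp6, the cytoplasmic ERK phosphatase, had a difference of -0.14 and was not called (adjusted p = 0.47). Without pair 2 there were 6 lower members (6.14% of all genes were lower then), Fosl1 no longer among them (-0.55, adjusted p = 0.090). Of 15 AP-1 and immediate early genes 5 were lower and 1 higher, but with the block only 1 was called, Junb, at -0.58 (SE 0.16, adjusted p = 0.028 with the block), and it was not called without pair 3.

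The called components of the PI3-kinase pathway lay in both directions. Of 23 tested, 3 were higher and 6 lower, beside 15.0% and 13.6% of all genes. With the block 2 were higher and 4 lower, beside 5.80% and 6.12%, and the median difference was -0.04. Pik3r1, the p85 regulatory subunit that docks on phosphorylated ERBB3, was at 8.08 and 8.43 in pair 1, up to 9.43 in pair 2, and 9.23 and 9.30 in pair 3. The 4 arrays of pairs 2 and 3 lay above all others (highest 8.91), and the difference of 0.65 (SE 0.11, adjusted p = 5.6e-06) was called against 11 of 12 groups, 7 with the block. Inpp5d (SHIP1), a lipid phosphatase of blood cells, was higher by 0.69 (SE 0.19) and not called without pair 2 (0.53, adjusted p = 0.117). Rictor and Rptor, the scaffolds of the mTOR complexes, were lower by -0.61 (SE 0.09) and -0.57 (SE 0.15), and the adaptor Irs1 by -0.65 (SE 0.15), all in both fits. Rptor was not called without pair 2 (-0.52, adjusted p = 0.058). FOXO target genes showed no common direction, with 6 of 21 higher, 6 lower and a median of -0.0023, and 4 and 4 called with the block. The stress proteins Sesn1 (0.66, SE 0.16) and Sesn3 (0.64, SE 0.14) were higher, and Cited2 (-0.84, SE 0.15) and the muscle ubiquitin ligase Fbxo32 (-0.79, SE 0.20) were lower, all in both fits. Sesn1 was not called without pair 2 (0.32), nor Fbxo32 without pair 3 (-0.32).

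Most hypoxia-inducible and glycolytic genes were lower with arrays as replicates. Of 26 tested, 22 were lower and 0 higher, beside 13.6% of all genes lower. With the block 13 were lower, beside 6.12%, and with pairs averaged 8 were, beside 3.06%. The median difference was -0.75. The list mean was -0.09 and 0.08 in pair 1, -1.37 and -1.21 in pair 2, and -0.28 and -0.82 in pair 3, so that pair 2 and T3 replicate 3 lay below all other arrays (lowest -0.81) and the others within their range. Without pair 2 the count was 6 lower, without pair 1 it was 24 and without pair 3 it was 19. Of all genes 6.14%, 15.4% and 8.12% were lower then. Slc2a1 (GLUT1), the glucose transporter, was at 10.97 and 10.89 in pair 1, 8.48 and 8.42 in pair 2, and 10.16 and 9.17 in pair 3. Pair 2 and T3 replicate 3 were below all 70 others (lowest 9.58), and the difference was -1.31 (SE 0.23, adjusted p = 1.9e-05, with the block 0.0016). Egln3, an oxygen sensor that HIF induces, was at 8.36 and 8.88 in pair 1, 4.72 and 5.33 in pair 2, and 8.63 and 8.07 in pair 3. Its difference of -1.49 (SE 0.39, adjusted p = 0.0026) rests on pair 2, without which it was -0.35 (adjusted p = 0.61), and it was not called without T1 replicate 2 either (-0.97). Bnip3, a mitophagy receptor, was lower by -1.12 (SE 0.23) and without pair 2 by -0.55 and not called. Adm, a vasodilator peptide, was lower by -1.28 and not called with the block, nor without pair 2 (-0.71) or T1 replicate 2 (-1.01). Vegfa was not called (-0.23, adjusted p = 0.26).

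The sequence ACGTG, a form of the core of the HIF binding site, was looked for in the 250 bases before each gene's start. Starts were from RefSeq on GRCm38.p6, and both strands were searched. It was present in 18 of 34 promoters (52.9%) of 25 of the 26 genes, and in 16.6% of all 32851 promoters. The list was chosen for hypoxia-inducible and glycolytic genes, so this share describes the list and not the ErbB3 tumours. Egln3 and Slc2a1 are shown because they had the largest differences among members with a match, and capitals mark the match. Their windows are chr12:54203875-54204124 and chr4:119108495-119108744, on the minus and plus strand, and the matches end 225 and 32 bases before the start.

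Egln3: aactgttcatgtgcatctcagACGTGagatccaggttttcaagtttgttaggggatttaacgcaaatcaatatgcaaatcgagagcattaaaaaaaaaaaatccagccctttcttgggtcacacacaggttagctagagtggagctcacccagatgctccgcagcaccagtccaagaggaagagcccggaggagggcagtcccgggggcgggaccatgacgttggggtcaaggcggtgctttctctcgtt

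Slc2a1: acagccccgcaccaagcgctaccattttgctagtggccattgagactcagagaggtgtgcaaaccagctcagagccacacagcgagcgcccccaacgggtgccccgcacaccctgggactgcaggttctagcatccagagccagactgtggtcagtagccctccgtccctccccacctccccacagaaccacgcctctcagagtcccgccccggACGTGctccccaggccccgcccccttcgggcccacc

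A match is a description of these letters and not a bound site. In ERK feedback genes the ETS motif CCGGAA and the AP-1 motif TGANTCA were each present in 0 of 11 promoters (12% and 6.75% of all promoters), and the CArG box in 1. These 11 promoters belong to 10 of the 18 genes, and ACGTG was present in 4 of them (36.4%).

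Some epithelial genes were lower, without a loss of every epithelial marker. Of 15 luminal genes tested 4 were lower and 2 higher, beside 13.6% and 15.0% of all genes, and the median difference was -0.0096. With the block 3 were lower (Krt18, Krt8 and Cd24a) and 0 higher, beside 6.12% and 5.80% of all genes. Krt8 was at 12.68 and 12.51 in pair 1, 10.42 and 10.72 in pair 2, and 11.60 and 11.75 in pair 3 (difference -1.02, SE 0.14, adjusted p = 2.7e-07). It was lower against each of the 12 groups, 9 with the block, and all 3 of its probe sets had their lowest group mean in ErbB3. Cd24a, a surface glycoprotein of luminal cells, was lowest in pair 3 (5.25 and 6.75), at 7.74 and 8.48 in pair 2 and at 9.41 and 9.18 in pair 1. Its difference of -2.03 (SE 0.64, adjusted p = 0.013) was not called without pair 2 (-2.17, adjusted p = 0.057) or pair 3 (-1.09, adjusted p = 0.33), nor without T2 replicate 1. Epcam, the epithelial adhesion molecule, lay between 7.14 and 7.71, and its difference of 0.29 was not called with the block (0.15), nor without pair 2 or T1 replicate 2. Cdh1, E-cadherin, was at 8.37 and 8.05 in pair 1 and between 4.28 and 6.04 in the other 4 arrays, with a difference of -0.61 that was not called (SE 0.39, adjusted p = 0.25). Of 15 junction genes 4 were lower and 2 higher, with 3 and 1 under the block. Their list mean of -0.24 in ErbB3 was also the lowest of the 13. Cldn1 was higher by 1.11 (SE 0.23), and without pair 3 by 0.74 and not called (adjusted p = 0.0503), while Cldn23 was lower by -0.90 (SE 0.18) near the control level. Among 15 secreted and surface proteins of epithelium 6 were lower and 1 higher, with 5 and 0 under the block. Their list mean of -0.55 in ErbB3 was the lowest of the 13 as well. Prss22 (-1.24, SE 0.34) and Klk8 (-1.23, SE 0.29), both serine proteases, were among the lower. Prss22 was not called without pair 2. Of 16 mesenchymal transition genes 4 were higher and 2 lower, with 2 and 1 under the block. Vim lay between 13.28 and 13.48 and was not called (-0.05, adjusted p = 0.16), and Cdh2, N-cadherin, was lower by -0.78 (SE 0.18), though not without pair 2 (-0.22, adjusted p = 0.43) or T1 replicate 2 (-0.41).

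Of 24 fibroblast and collagen genes 13 were higher and 1 lower, beside 15.0% and 13.6% of all genes. With the block 9 were higher and 1 lower, beside 5.80% and 6.12%. With pairs averaged 5 were higher and 1 lower, beside 2.74% and 3.06%. The median difference was 0.42. Bulk arrays cannot tell more cells of a type apart from more RNA per cell. The list mean was -0.01 and 0.13 in pair 1, 0.86 and 1.00 in pair 2, and 0.40 and 0.39 in pair 3, and the ErbB3 mean of 0.46 came after that of RSK2. Pdgfrb, a receptor of pericytes and fibroblasts, was at 11.22 and 11.56 in pair 1, 12.31 and 12.40 in pair 2, and 12.03 and 11.76 in pair 3, against at most 11.98 elsewhere (difference 1.54, SE 0.24, adjusted p = 2.8e-06). Pdgfra was higher by 1.18 (SE 0.24) and the matrix protein Dpt by 1.39 (SE 0.30), in both fits. Col1a1, the main chain of type I collagen, was not called (0.35, adjusted p = 0.17). Thy1, which marks a subset of fibroblasts, was lower by -0.99 (SE 0.21), and by -0.61 and not called without pair 3 (adjusted p = 0.069). Without pair 2, 4 members were higher (5.63% of all genes were higher then), and without pair 3, 7 were (9.39%).

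Of 20 matrix proteases and inhibitors 8 were lower and 1 higher, beside 13.6% and 15.0% of all genes. With the block 4 were lower and 1 higher, beside 6.12% and 5.80%. The higher one was Timp3, an inhibitor of metalloproteinases bound to matrix, at 8.99 and 9.24 in pair 1, 10.17 and 10.61 in pair 2, and 10.87 and 10.93 in pair 3. Pairs 2 and 3 were above all other arrays (highest 10.02), and the difference was 1.79 (SE 0.24, adjusted p = 2.0e-07). Mmp12, the elastase of macrophages, was at 9.20 and 9.27 in pair 1, 5.83 and 5.73 in pair 2, and 4.66 and 3.62 in pair 3 (difference -2.71, SE 0.50, adjusted p = 3.7e-05). The 4 arrays of pairs 2 and 3 were below all others (lowest 5.97). Mmp10, a stromelysin of epithelium, was at 9.17 and 9.33 in pair 1 and from 5.35 to 7.25 in the others, none of the other groups falling below 8.28. Of 20 integrins and laminins 6 were lower and 5 higher, beside 13.6% and 15.0% of all genes. With the block 5 were lower and 5 higher, beside 6.12% and 5.80%. The laminin chain Lama5 (-1.78, SE 0.32) and the laminin receptor subunit Itga3 (-1.55, SE 0.25), both of epithelial basement membranes, were lower. Itga8 (2.29, SE 0.44), a mesenchymal integrin, Itgb8 (1.10, SE 0.31) and Lama4 (0.85, SE 0.19), a laminin of vessels, were higher. Itgb8 and Lama4 were not called without pair 2 (adjusted p = 0.063 and 0.068).

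The TGF-beta, Wnt and retinoic acid lists had calls in both directions, beside 15.0% higher and 13.6% lower over all genes. Of 30 TGF-beta and BMP genes 6 were lower and 3 higher, 4 and 2 with the block. The ligand Tgfb3 was at 8.02 and 8.42 in pair 1, 9.41 and 9.40 in pair 2, and 9.40 and 9.27 in pair 3, the last 4 above all other arrays (highest 8.92), with a difference of 1.06 (SE 0.15, adjusted p = 6.1e-07). The feedback inhibitor Smad7 was lower by -0.93 (SE 0.15, adjusted p = 3.9e-06), Smad3 by -0.63 (SE 0.14) and the procollagen protease Bmp1 by -0.87 (SE 0.11). In the Wnt pathway 8 of 30 were lower and 4 higher, 3 and 3 with the block. Wnt10a was at 4.54 and 4.32 in pair 1, 6.06 and 6.95 in pair 2, and 6.98 and 7.46 in pair 3 (difference 1.31, SE 0.25), and without pair 3 it was 0.73 and not called. Wnt7b was lower by -1.57 (SE 0.32, adjusted p = 0.00020). Retinoic acid genes had 3 of 20 higher and 4 lower, 2 and 2 with the block. Crabp1, a binding protein of retinoic acid, was at 8.41 and 8.82 in pair 1, 11.26 and 10.88 in pair 2, and 12.43 and 12.64 in pair 3. Its difference of 2.38 (SE 0.59, adjusted p = 0.0016) fell to 1.49 without pair 3 and was then not called (adjusted p = 0.124). Rdh10, which makes the precursor of retinoic acid, was lower by -1.11 (SE 0.19, adjusted p = 1.4e-05).

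**Figure D3:**
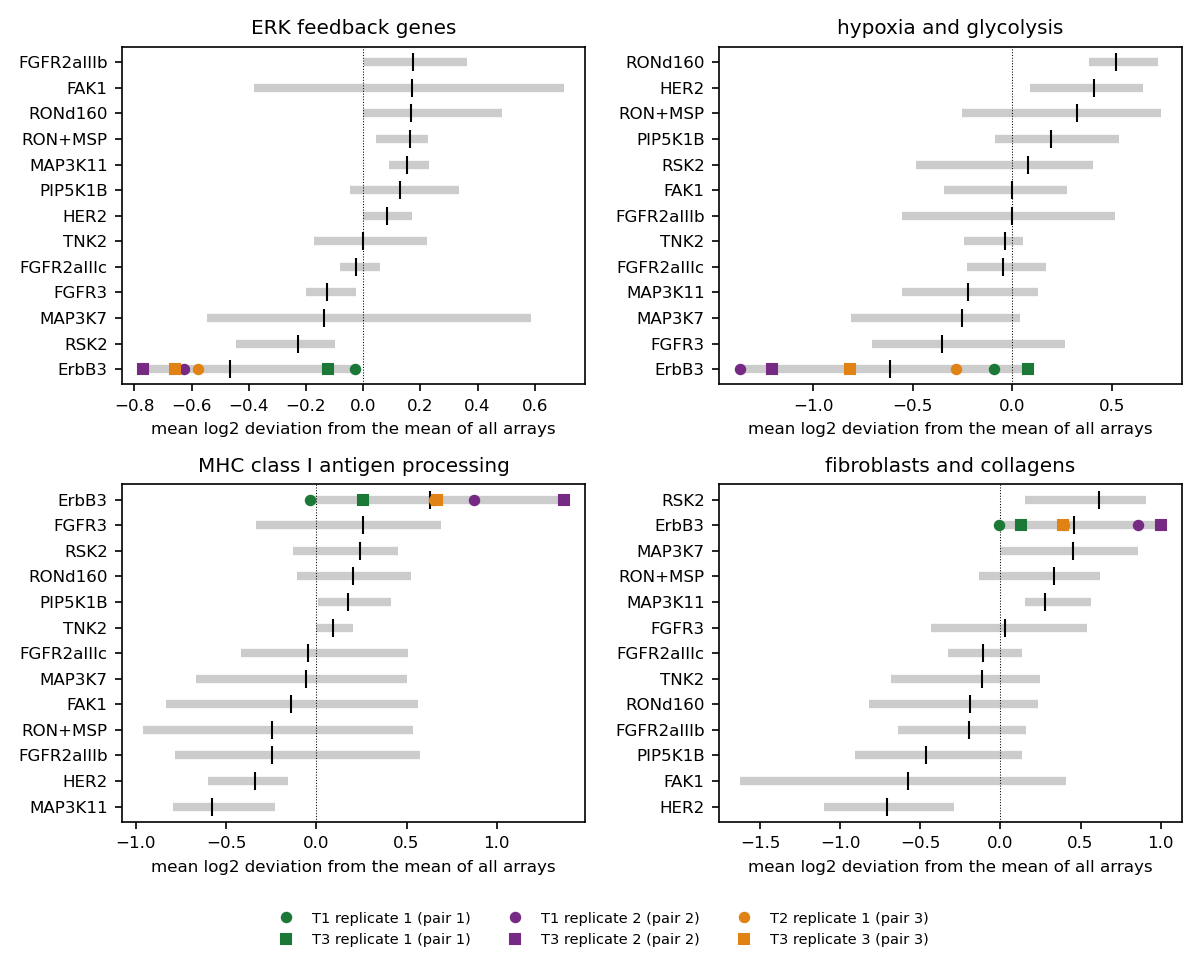
Mean log2 deviation of 4 gene lists from the mean of all arrays, by introduced gene; grey bars span the arrays of a group, black ticks are group means and coloured points the 6 ErbB3 arrays. ErbB3 has the lowest mean for ERK feedback genes (-0.46) and for hypoxia and glycolysis (-0.61), and the highest for MHC class I antigen processing (0.63), and its fibroblast mean of 0.46 comes after that of RSK2.

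Of 13 genes of antigen processing for MHC class I tested 12 were higher and 0 lower, beside 15.0% and 13.6% of all genes. With the block 9 were higher and 0 lower, beside 5.80% and 6.12%, and the median difference was 0.69. With pairs averaged 1 was called higher, beside 2.74% of all genes. The list mean was -0.04 and 0.26 in pair 1, 0.87 and 1.37 in pair 2, and 0.65 and 0.67 in pair 3, and the ErbB3 mean was the highest of the 13. Psmb9, an immunoproteasome subunit, was at 8.74 and 9.23 in pair 1, 10.44 and 11.02 in pair 2, and 10.07 and 9.98 in pair 3. The 4 arrays of pairs 2 and 3 were above all others (highest 9.82), and the difference was 1.26 (SE 0.28, adjusted p = 0.00056, with the block 0.0045). Psmb8 (1.10, SE 0.29) and the peptide transporter Tap1 (0.97, SE 0.29) were also higher in both fits. Without pair 2, 1 member was called higher, beside 5.63% of all genes, and the median difference of the list was 0.44. Psmb9 (0.83, adjusted p = 0.086), Psmb8 (0.81) and Tap1 (0.56) were then not called. Fewer arrays also lower the precision, so a lost call does not place a difference in that pair alone. Tap1 was not called without pair 3 (adjusted p = 0.059) or T3 replicate 2 either. Cd74, the invariant chain of MHC class II, was at 12.14 and 13.15 in pair 2 and between 9.93 and 10.66 in the other 4 arrays, and it was not called (0.12, adjusted p = 0.80).

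Of 26 interferon-stimulated genes 18 were higher and 0 lower, beside 15.0% and 13.6% of all genes. With the block only 2 were higher, beside 5.80%, and with pairs averaged 0 were, beside 2.74%. The median difference was 0.75. Without pair 1, 24 were higher (16.4% of all genes were higher then), without pair 2 the count was 0 (5.63%). Without pair 3 it was 5 (9.39%). Without MAP3K11 it was 8 (12.9% of all genes were higher and 12.6% lower then). Cxcl10, a chemokine for T cells, was at 6.73 and 7.26 in pair 1, 8.77 and 9.95 in pair 2, and 8.81 and 9.37 in pair 3. The 6 arrays lay within the range of the others (4.86 to 10.29), and the difference of 1.37 (SE 0.42, adjusted p = 0.011) was not called with the block (0.055), nor without pair 2, pair 3 or T3 replicate 2. Ifit3 (1.13) and Ifit1 (1.11), which bind viral RNA, were not called with the block (0.12 and 0.13), nor without pair 2, pair 3, the MAP3K11 group or any 1 array of pairs 2 and 3. The core of the interferon response element, 2 copies of GAAA parted by any 2 bases, was present on either strand in 11 of 27 promoters (40.7%) of 21 of these genes, in 1 of 11 of the MHC class I genes and in 2.98% of all promoters. The STAT dimer motif TTCNNNGAA was present in 6 and 1 of them and in 7.02% of all. These shares describe the lists and not the ErbB3 tumours. Cxcl10 (chr5:92348890-92349139, minus strand) and Ifit3 (chr19:34583279-34583528, plus strand) are shown as the members with a match that had the largest differences, with the matches in capitals, 1 in Cxcl10 and 2 in Ifit3.

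Cxcl10: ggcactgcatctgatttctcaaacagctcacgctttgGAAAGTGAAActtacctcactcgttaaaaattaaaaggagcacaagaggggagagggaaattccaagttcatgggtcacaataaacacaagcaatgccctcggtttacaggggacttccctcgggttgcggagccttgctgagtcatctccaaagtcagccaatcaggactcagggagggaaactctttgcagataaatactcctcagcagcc

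Ifit3: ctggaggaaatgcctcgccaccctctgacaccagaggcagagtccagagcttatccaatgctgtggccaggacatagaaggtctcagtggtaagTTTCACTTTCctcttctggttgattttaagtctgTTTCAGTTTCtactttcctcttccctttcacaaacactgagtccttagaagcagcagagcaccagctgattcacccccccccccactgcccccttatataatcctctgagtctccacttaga

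Lists of immune cells followed these genes only in part. T cell genes were highest in pair 2, as the antigen processing and interferon genes were. The B cell, MHC class II and macrophage lists also had their highest means in pair 2. Neutrophil genes were highest in pair 2 too (0.78 and 0.53) but lowest in pair 3 (-0.55 and -0.78). In pair 1 they were at 0.49 and -0.23. Mast cell genes were highest in pair 1. The list of T cell and cytotoxic granule genes had a mean of -0.40 and -0.16 in pair 1, 1.12 and 1.34 in pair 2, and 0.23 and 0.11 in pair 3, and pair 2 was above all 70 other arrays (highest 0.98). Of 15 tested 5 were higher and 0 lower, beside 15.0% and 13.6% of all genes. Without pair 2, 0 were higher, beside 5.63%. With the block 1 was higher, near the share of all genes (5.80%). Ccl5, a chemokine made by T cells, was that 1 gene, at 6.48 and 7.02 in pair 1, 8.24 and 9.30 in pair 2, and 7.57 and 7.59 in pair 3 (difference 0.78, SE 0.21, adjusted p = 0.0042, with the block 0.049). It was not called without T3 replicate 2 (0.49). Gzmk, a granzyme, was at 7.96 in T3 replicate 2 and 5.77 in T1 replicate 2, and between 3.98 and 4.28 in the other 4 arrays, and without pair 2 its difference was -0.18. The part of these cells in the antigen processing and interferon genes was not tested.

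Of 22 macrophage genes tested 13 were higher and 1 lower, beside 15.0% and 13.6% of all genes. With the block 9 were higher and 1 lower, beside 5.80% and 6.12%, and the median difference was 0.60. Without pair 2 only 1 was higher and 1 lower, beside 5.63% and 6.14%. With pairs averaged 0 were higher and 1 lower, beside 2.74% and 3.06%. The list mean was 0.23 and 0.30 in pair 1, 0.54 and 0.80 in pair 2, and 0.22 and 0.18 in pair 3, all 6 above the median of the other arrays (-0.04). Cx3cr1, the fractalkine receptor, was at 8.42 and 8.38 in pair 1, 9.91 and 11.15 in pair 2, and 10.36 and 9.54 in pair 3 (difference 1.30, SE 0.32, adjusted p = 0.0017). Its ligand Cx3cl1 was higher by 0.98 (SE 0.21, adjusted p = 0.00025), with pair 2 at 10.75 and 10.64 and the other 4 arrays at 9.57 to 9.77. The pore protein Mpeg1 (0.89), Ms4a7 (0.92) and the lipid receptor Trem2 (0.83) were also higher in both fits, and without pair 2 none of these 5 was called (adjusted p from 0.073 to 0.257). Ms4a7 (adjusted p = 0.068) and Trem2 (0.063) were not called without pair 3 either. The lower member was Arg1, the arginase of alternatively activated and hypoxic macrophages, at 11.65 and 11.89 in pair 1, 7.35 and 7.38 in pair 2, and 6.20 and 5.42 in pair 3. The arrays of pair 1 lay above the mean of the other groups (10.78), and the 4 of pairs 2 and 3 below all 70 others (lowest 8.29). The difference was -2.47 (SE 0.48, adjusted p = 7.8e-05, with the block 0.0012), and without pair 3 it was -1.16 and not called (adjusted p = 0.10). Ptprc, the pan-leukocyte antigen, lay between 10.12 and 11.25 and was not called (0.41, adjusted p = 0.10).

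Skeletal muscle genes separated the ErbB3 arrays most among the lists described here, and not by pair. The list mean was 2.93 and 3.52 in pair 1, 3.27 in T1 replicate 2 and 0.99 in T2 replicate 1, but -1.46 in T3 replicate 2 and -1.18 in T3 replicate 3. All 8 genes with the largest SD over the ErbB3 arrays but 1 were muscle genes (Acta1, Tnnc2, Myh4, Tnnt3, Mybpc2, Ckm and Myl1, SD 2.80 to 3.80). The other was Ear3, a ribonuclease of eosinophils, at 9.61 and 8.77 in pair 1 and between 2.57 and 4.38 in pairs 2 and 3. Acta1, skeletal muscle actin, was at 12.71, 13.02 and 12.94 in the first 3 of these arrays, 10.61 in T2 replicate 1, and 4.90 and 5.45 in the last 2. Of 25 members 14 were called higher and 0 lower, beside 15.0% and 13.6% of all genes. With the block 0 were called, beside 5.80% and 6.12%. Their median difference was 1.77, and without pair 1, 0 were called, beside 16.4% of all genes higher. With the muscle mean as a covariate (13.7% of all genes higher, 12.7% lower) the ERK feedback list had 13 lower members and the hypoxia list 22. The MHC class I list then had 12 higher, the fibroblast list 11 and the interferon list 14. Fat genes varied too, with 3 of 14 called higher (15.0% of all genes) and 0 with the block (5.80%). Their list mean was 2.01 in T3 replicate 2 and 1.36 in T3 replicate 3, and 0.06 to 0.44 in the other 4. Adipoq, the fat cell hormone, was at 10.95 and 9.99 in those 2 arrays and between 7.85 and 8.46 in the rest.

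Calls were not spread evenly over the chromosomes. On chromosome 8, 27.1% of 726 genes were higher and 6.61% lower, and the arrays of pair 3 had medians of 0.15 and 0.18 (log2 deviation from the mean of all arrays), against 0.03 and 0.02 in pair 1 and -0.0021 and -0.0099 in pair 2. On chromosome 11, 20.4% of 1153 genes were higher and 8.93% lower, with 0.10 and 0.05 in pair 2 and -0.01 to 0.0046 in the other 4 arrays. Chromosomes 14 and 15 went the other way in all 3 pairs. On chromosome 14, 23.9% of 468 genes were lower and 6.62% higher, and the 6 arrays had medians of -0.14 to -0.05, the lowest group mean of the 13. On chromosome 15, which holds Krt18 and Krt8, 25.8% of 561 genes were lower and 6.24% higher, with medians of -0.11 to -0.06. These lay within the range of the other arrays there (-0.14 to 0.24, median -0.03). With the block 81 genes of chromosome 8 were higher and 18 lower, 95 and 38 of chromosome 11, 9 and 58 of chromosome 14, and 13 and 80 of chromosome 15. On chromosome 8 arrays of other groups lay between -0.21 and 0.27, and on chromosome 14 both arrays of pair 3 (-0.14 and -0.11) lay below all 70 others (lowest -0.106). Copy number was not measured, and whether it differs on these chromosomes was not tested.

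**Figure D4:**
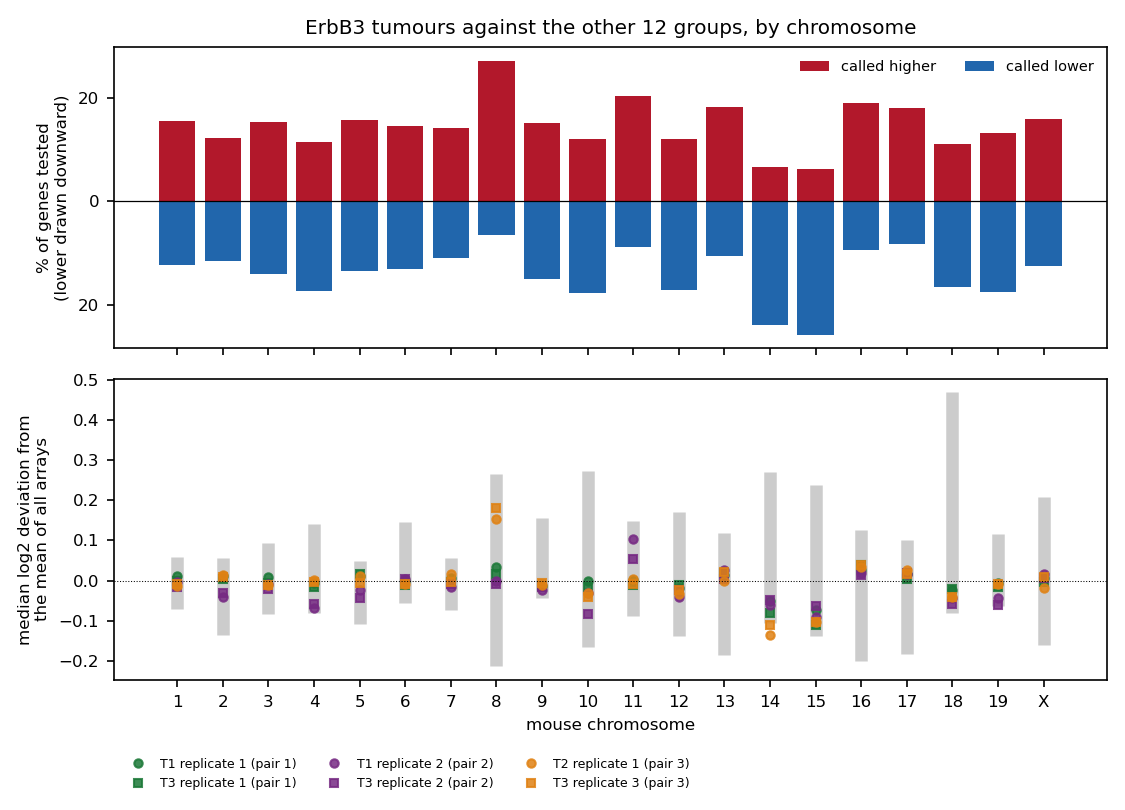
Upper panel, percent of the genes tested on each chromosome that were called higher or lower in ErbB3; lower panel, median log2 deviation of each chromosome from the mean of all arrays, with the ErbB3 arrays as coloured points and the range of the 70 others as grey bars. Chromosomes 14 and 15 lie below 0 in all 6 arrays, as do 9, 10, 12, 18 and 19 by smaller amounts on average. Chromosome 8 is high in pair 3 and chromosome 11 in pair 2.

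Taken one group at a time, the ErbB3 tumours were closest to FGFR3, with 423 genes called (3.05%), and farthest from MAP3K11, with 6886 (49.7%). The 12 comparisons share the 6 ErbB3 arrays. RSK2 (10.6%), TNK2 (12.7%), MAP3K7 (17.0%) and FGFR2aIIIc (17.3%) came next, then FAK1 (21.9%), PIP5K1B (22.5%), RON+MSP (22.7%), FGFR2aIIIb (26.4%) and RONd160 (32.8%). With the block these shares were 0.317% for RSK2, 1.47% for TNK2, 2.60% for MAP3K7, 6.87% for FAK1, 7.10% for PIP5K1B, 7.43% for RON+MSP, 11.3% for FGFR2aIIIb, 16.1% for RONd160 and 33.6% for MAP3K11, and 694 genes were called against FGFR2aIIIc. With the block the count against FGFR3 was 18 (0.130%), 10 lower and 8 higher in ErbB3. The lower ones were Krt18 (-3.38, SE 0.59), Msln (-3.29, SE 0.60), Cldn6 (-2.96, SE 0.65), Padi4, Acsbg1, Atg9b, Mtcl1, Tlcd2, Fam83h and Mycn. The higher ones were Col10a1 (3.19, SE 0.40), Mgp (2.69, SE 0.49), Timp3 (2.09, SE 0.33), Rbpms, Pfn2, Prickle2, Tnfrsf25 and Pkdcc. These 18 were named after their values were seen. For Krt18 the 6 FGFR3 arrays lay between 11.65 and 12.18, above all ErbB3 arrays but T1 replicate 1. Col10a1 was between 4.88 and 5.03 in FGFR3, below every ErbB3 array. No list member of the ERK feedback, hypoxia, MHC class I or interferon lists was called against FGFR3 with the block.

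Against HER2, the group in which the original driver was returned, 4671 genes were called (33.7%), 2152 higher (15.5%) and 2519 lower (18.2%), and 2406 with the block (17.3%). Of 26 hypoxia genes 23 were lower and 1 higher, 20 and 0 with the block (9.77% of all genes were lower then). Of 26 interferon-stimulated genes 25 were higher and 1 lower, 12 and 0 with the block, and of 24 fibroblast genes 18 were, 14 with the block (7.58% of all genes were higher then). Of the genes named above, Cldn6 (-5.11, SE 0.64) and Msln (-4.81, SE 0.59) were lowest among those measured above the control level, and Ogn, Itga8 (3.91, SE 0.59) and Ptn (3.73, SE 0.51) the 3 highest. Egfr was higher in ErbB3 than in HER2 by 1.32 (SE 0.26), with HER2 arrays at 5.98 to 7.30, below all 6 ErbB3 arrays.

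**Figure D5:**
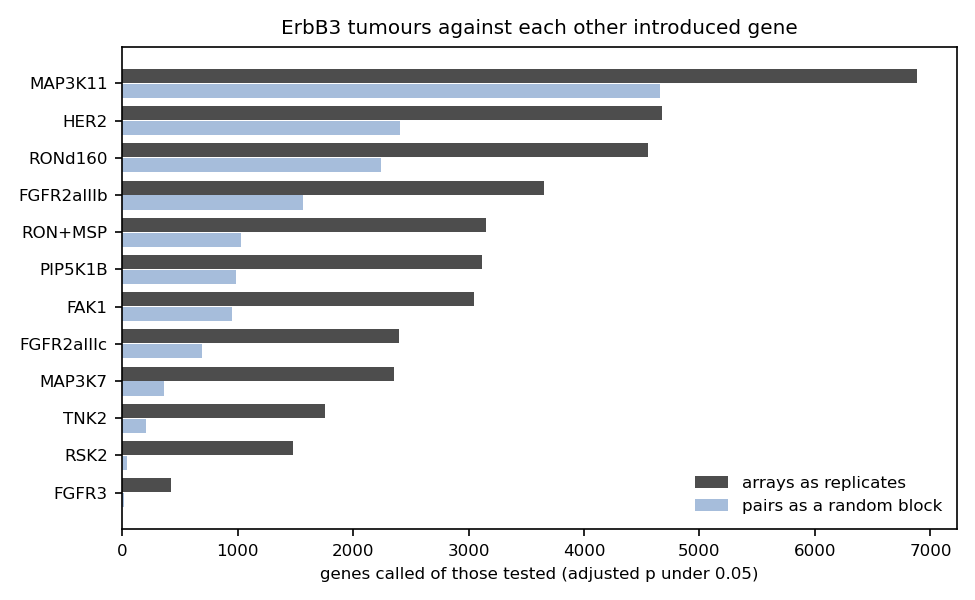
Number of genes called between ErbB3 and each other group, with arrays as replicates (dark bars) and with the pairs as a random block (light bars); the bars start at 0. The count runs from 423 against FGFR3 to 6886 against MAP3K11, and from 18 to 4659 with the block.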

How the data were processed

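Expression was measured on Affymetrix mouse expression arrays, 1 per sample, from RNA isolated with RNeasy columns. The values are the authors' deposited log2 expression per probe set (45101 probe sets). The submitters' processing notes name the R package affy, with no version, and further steps are not given in the sources used here. Values ran from 1.77 to 14.18.

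Of the probe sets, 34958 name 1 gene, 932 several and 9211 none in the platform annotation, and only the first were used. Each gene was represented by the probe set with the highest mean over all arrays. This gave 18194 genes, and 13868 lay above the 40th percentile of their array in at least 4 arrays and were tested. The fit was limma 3.58.1 in R 4.3.3 on 13 groups and the T label (61 residual degrees of freedom), two-sided, with Benjamini-Hochberg adjustment over all genes tested. The pair block used duplicateCorrelation. The script was tested on simulated data with independent noise in each array, and only in the fit with arrays as replicates. That test does not cover correlated pairs. Replicate numbers were compared between groups only. Arrays of different groups with the same T label and replicate number had a median r of -0.014, and other arrays of different groups -0.0013. Whether a shared number pairs arrays within a group was not tested. In ErbB3 pairs 1 and 2 both arrays carry the same replicate number, and in pair 3 they do not.

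The members and the 53 gene lists were chosen with earlier results of these data known. Named were the 12 highest and 12 lowest genes called in both fits with all ErbB3 arrays on 1 side of the other groups' mean, the genes with the widest gap, up to 4 called members in each direction of each list described, chosen defining markers, all ERBB receptors and ligands, and the 8 genes with the largest SD over the ErbB3 arrays. Alternatives changed the pairing, filter, normalization, probe set rule, prior, weights, threshold, arrays, groups and a muscle covariate. One gene that the study names is left unreported.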

Additional observations from a re-analysis of the deposited data

Results flagged for a closer look

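Among 216 named genes, list means and chromosome medians checked over the 6 ErbB3 arrays, 5 genes had 1 array whose gap to the nearest other array, as a share of the whole range, passed Dixon's critical value for 6 arrays. Chance flags about 1 in 20 such values. T3 replicate 2 stood apart in 4 of them. In that array Mmp3, the stromelysin of stromal cells, was high at 10.59, and Fzd4, a Wnt receptor, was high at 8.53. The ATP synthase subunits Atp5g1 (10.71) and Atp5o (11.49) were low there. Gpd1, a glycerol phosphate dehydrogenase that is abundant in fat, was high in T3 replicate 3, at 6.97. The list of fat genes had its highest means in the same 2 arrays, and the part of fat tissue in these values was not tested.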

How the results depend on the processing

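Against 3961 calls (2077 higher, 1884 lower), and 4671 against HER2, the pairs as a random block gave 1653 (804 higher, 849 lower) and 2406. Averaging each pair to 1 value gave 805 (380 and 425) and 1449. An adjusted p under 0.01 gave 2301 (1172 and 1129) and 3031, and a log2 difference of at least 1 gave 329 (162 and 167) and 728. Without pair 2 there were 1632 (781 and 851) and 2345, and without pair 3 there were 2428 (1302 and 1126). Leaving out 1 ErbB3 array gave 2598 to 4137 calls (1328 to 2170 higher, 1270 to 1967 lower) and 3711 to 5029 against HER2. The lowest count was without T1 replicate 2. Leaving out 1 other group gave 3528 to 4338. The replicate number as a block gave 3983 calls, and 4727 against HER2, and the numbers are not said to pair arrays. Of all calls 52.4% were higher, and 44.9% after centring each array on its median.

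Of 170 named genes, 119 kept their side of the threshold with the pairs as a block and 75 with pairs averaged. Vim turned to 0.10 with the probe set of highest SD and 0.039 with the mean of probe sets, where Nrg2 was -0.062. Cd74 was -0.38 with array weights, from -0.28 (without T3 replicate 2) to 0.34 when 1 ErbB3 array was left out, -0.14 without T1 replicate 2 and -0.69 without pair 2. Without pair 1 Acta1 was -0.26 and Ear3 -0.90. Without pair 2 Cxcl9 was -0.0038 and Gzmk -0.18, and without pair 3 Cdh1 was 0.16. With the muscle mean as a covariate Myl1 was -0.10, Acta1 -0.93, Tnnc2 -0.40, Myh4 -0.33, Tnnt3 -0.22, Mybpc2 -0.48 and Ckm -0.13. For other changes the cause was not tested. Probe sets near the control level limit the lowest values.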

Other observations

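Cell division genes did not separate the ErbB3 tumours: of 28 tested 0 were called in either fit (limma), with a median log2 difference of -0.03, and Mki67, the proliferation marker, had a difference of 0.11 (adjusted p = 0.42). Of 13868 genes 5446 had an unadjusted p under 0.05. The counts of calls in this section stand beside 15.0% of all genes higher and 13.6% lower. With the block these shares were 5.80% and 6.12%. Genes of the respiratory chain and ATP synthase were higher in 13 of 32, and 4 with the block. Their median difference was 0.09, and 8 were called after median centring. Unfolded protein response genes were higher in 7 of 20, 2 with the block. Sterol synthesis genes were lower in 4 of 19 and higher in 1, 3 and 0 with the block. NF-kB target genes were lower in 7 of 25 and higher in 4, and 0 and 1 with the block.

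Endothelial genes were higher in 2 of 22, a smaller share than among all genes (15.0%), with 0 called with the block. Pericyte and smooth muscle genes had 2 of 14 higher and 2 lower, near the shares of all genes, and 2 and 0 with the block. Mast cell genes had 2 of 11 lower, 1 with the block, with a median of -0.45. The ErbB3 mean of that list (-0.51) was the lowest of the 13 groups, with pair 1 at -0.03 and -0.23 and the other 4 arrays from -0.95 to -0.50. Neutrophil genes were higher in 3 of 10, and 1 with the block. MHC class II genes were higher in 1 of 12, and B and plasma cell genes in 1 of 8, with the same counts under the block.

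Hox genes, which keep a positional identity in mesenchymal cells, were called in 7 of 18 tested, 3 higher and 4 lower, and 3 and 2 with the block. Chemokine ligands were higher in 6 of 29 and lower in 3, and 3 and 0 with the block. The neutrophil chemokine Cxcl3 was at 5.24 and 6.16 in pair 1 and between 2.46 and 2.67 in pairs 2 and 3, below all 70 other arrays (lowest 2.77) and under the median of the control probe sets.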
